A study of Homo sapiens with 9 samples.

Results

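The translocon is the channel of the endoplasmic reticulum through which newly made secretory and membrane proteins leave the cytosol. The genes described here are its core and nearest partners in HT29 cells, an epithelial line grown from a human colon tumour: the channel subunits SEC61A1, SEC61A2, SEC61B and SEC61G, the translocon-associated protein subunits SSR1, SSR2, SSR3 and SSR4, and the helper proteins SEC62 and SEC63. Members were all probe sets annotated to exactly 1 of these 10 symbols, which gave 29 probe sets of 9 genes among 41091 probe sets of 19775 genes with a single symbol. No probe set with the symbol SEC61G alone is listed in the annotation used, so it was not analysed here. The set was selected on the ICC minus Control difference of the log2 values of 1 SSR3 probe set (217790_s_at), which was lower after instant coffee than in untreated cells in a model of all 9 arrays with the replicate number as a block. Values of that contrast are therefore given as a description and were not tested.

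Gene expression was recorded on Affymetrix HG-U133 Plus 2.0 arrays, 3 per group and 9 in all. Untreated HT29 cells formed the Control group. The CA group received caffeic acid, a phenolic acid of coffee, at 1.68 µg/mL, and the ICC group received instant caffeinated coffee at 7 µg/mL, both for 24 h. Each group has arrays numbered 1, 2 and 3. The labels do not say whether the numbers mark separate cultures or what they share, so a p-value here reflects the spread between arrays alone, and that spread may be technical.

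Proteins bound for secretion carry a signal sequence that the signal recognition particle (SRP) reads as it leaves the ribosome, and the SRP receptor brings the ribosome to the membrane. The SEC61 complex opens as a pore, formed by an alpha subunit with the small beta and gamma subunits. The translocon-associated protein complex (TRAP, genes SSR1 to SSR4) sits beside the pore, contacts the ribosome and helps some signal sequences to open it. SEC62 and SEC63 serve proteins that enter after or late in translation, and SEC63 recruits the lumenal chaperone BiP. Colon cells that make mucus and brush border proteins use this route heavily, and many of its genes are known targets of the unfolded protein response factors XBP1 and ATF6.

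The following promoters are printed to show the regulatory sequence of SSR3, SSR1 and SEC63, the genes with a probe set that differed among replicate numbers. Each is the 250 bases before the start site at the 5′ end of the gene in RefSeq, build GRCh38.p14, on the strand of the gene (minus for all 3), and capitals mark the letters GCCACGT or their reverse complement, a core that XBP1 is known to prefer.
SSR3, chr3:156555118-156555367: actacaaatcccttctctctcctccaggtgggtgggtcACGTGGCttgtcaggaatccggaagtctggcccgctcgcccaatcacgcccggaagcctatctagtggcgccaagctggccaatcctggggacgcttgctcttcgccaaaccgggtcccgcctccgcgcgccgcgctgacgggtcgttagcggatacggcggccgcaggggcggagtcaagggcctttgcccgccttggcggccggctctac
SSR1, chr6:7313200-7313449: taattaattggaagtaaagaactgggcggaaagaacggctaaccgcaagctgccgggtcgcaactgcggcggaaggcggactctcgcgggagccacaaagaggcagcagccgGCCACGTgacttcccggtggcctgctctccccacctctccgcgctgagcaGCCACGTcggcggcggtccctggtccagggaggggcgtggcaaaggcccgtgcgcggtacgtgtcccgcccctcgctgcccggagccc
SEC63, chr6:107958209-107958458: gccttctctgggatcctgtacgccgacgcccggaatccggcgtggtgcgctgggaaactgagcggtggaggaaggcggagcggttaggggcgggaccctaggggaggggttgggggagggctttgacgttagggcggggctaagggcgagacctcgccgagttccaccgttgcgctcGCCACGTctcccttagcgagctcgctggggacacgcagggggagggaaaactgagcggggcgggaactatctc
In SSR3 the match began 212 bases before the start site, in reverse orientation. SSR1 held 2 matches in forward orientation, the first beginning 138 bases before the start site, and SEC63 held 1, beginning 73 bases before it.

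Searched on both strands, GCCACGT occurred in 6 of the 15 promoter entries that RefSeq gives for the 10 genes, from 4 genes (SSR1, SSR3, SSR4 and SEC63), and in 2.78% of all 35116 promoters of the same length. Every entry of SSR3 held GCCACGT, so SSR3 counts more than once in the 6. The letters TGACGTGG, a form of the unfolded protein response element whose reverse complement shares CCACGT with it, occurred in promoters of SSR3, SSR4 and SEC62, 3 of 15 entries, and in 0.612% of all promoters. For SSR3 the TGACGTGG match lies in an entry other than the one printed above, away from the 5′ end of the gene. The longer endoplasmic reticulum stress element, CCAAT and CCACG separated by 9 bases, occurred in 0 of 15 entries and 0.074% of all. These matches describe letters in the windows searched and no binding was measured.

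SSR3 encodes the gamma subunit of TRAP and was read by 4 probe sets. The one on which the choice rests, 217790_s_at, read 9.08, 9.16 and 9.48 on the log2 scale in the Control arrays, in the order of numbers 1, 2 and 3. The CA arrays read 8.63, 8.87 and 9.11, and the ICC arrays 8.42, 8.37 and 8.77. All 3 ICC arrays lay below all 3 Control arrays, while CA lay between them and overlapped with both. Arrays of whole cultures cannot tell fewer cells of a kind from less RNA per cell, here or in any result that follows. The group means were 9.24 ± 0.21 (SD, n = 3) in Control, 8.87 ± 0.24 in CA and 8.52 ± 0.21 in ICC, a difference of -0.72 log2 (1.65-fold) between ICC and Control that is the value the members were chosen for. Among 54613 probe sets this was the 7th lowest difference of that contrast. Between arrays of the same number, ICC lay below Control by nearly the same amount each time, at -0.66, -0.79 and -0.72 log2. The fit used for the choice had the number as a block and favours such likeness, so nothing is read from it.

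The other 3 SSR3 probe sets read smaller differences. Probe set 222412_s_at read 9.25, 9.32 and 9.54 log2 in Control, 8.99, 9.16 and 9.21 in CA and 8.98, 8.96 and 9.19 in ICC. Here both treated groups lay wholly below Control and overlapped with each other. Probe set 222411_s_at read 10.88, 10.76 and 10.89 in Control, 10.68, 10.54 and 10.80 in CA and 10.71, 10.61 and 10.79 in ICC, with overlapping groups. The dimmest, 237817_at, stayed between 6.17 and 6.46 on all 9 arrays. Described as differences of ICC from Control, these 3 gave -0.32, -0.14 and -0.08 log2. In 222411_s_at and 237817_at the ICC arrays overlapped with Control. In 237817_at the ICC array numbered 1 lay above the Control array of that number, by 0.04 log2. The 4 mean differences of SSR3 were all below 0 and differed in size. They belong to the contrast used for the choice, so a shared direction was not tested. Which transcript forms of SSR3 each probe set reads is not given in the sources used here.

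**Figure D1:**
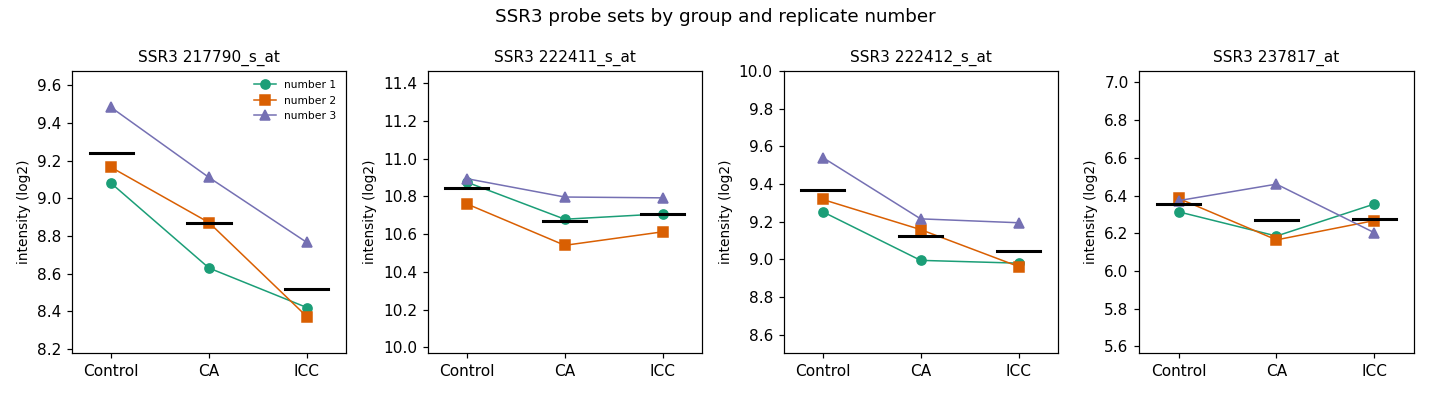
Log2 intensity of the 4 SSR3 probe sets (vertical axis, every panel spanning the same height) in the Control, CA and ICC groups. Points joined by a line are arrays of the same replicate number and black bars are group means of 3 arrays. In 217790_s_at the lines fall from Control to CA and again to ICC, from a mean of 9.24 to 8.87 and 8.52.

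Caffeic acid against untreated cells compares a single coffee compound with no treatment. The Control arrays are shared with the contrast that chose the members, and the CA arrays entered the same model, where they add to the estimate of spread and, with the block, of the replicate numbers. In CA 27 of 29 member probe sets lay below Control, against 52% of all probe sets, with a median difference of -0.11 log2 over the members and -0.0047 over all probe sets. The 52% covers dim probe sets too, while 26 of the 29 members lay above the arrays' median. A share among bright probe sets alone was not taken for this contrast. All 12 SSR and all 10 SEC62 and SEC63 probe sets were among the 27, and the 2 above 0 both belonged to SEC61A2. None of the members passed limma's test after Benjamini-Hochberg adjustment, where 0% of 54613 probe sets passed, nor did any, where 0% did, once the replicate number was a block in the fit. An unadjusted p under 0.05 was found for 3 member probe sets lower and 0 higher, where it was found for 2.49% and 2.18% of all probe sets. With the block 8 were lower and 0 higher, where 4.91% and 3.31% of all were. These counts rested on single arrays and on scaling: the 3 became 0 without CA replicate 1, 1 without Control replicate 3, 8 without CA replicate 3 and 0 after quantile normalization again. The 8 became 3 without Control replicate 1 or CA replicate 1 and 5 without Control replicate 2. Leaving Control replicate 3 out of the fit with the block raised the 8 to 10. Shares over all probe sets were not taken for these refits, so whether the moves are particular to the members was not tested. Because several probe sets read the same gene, the 29 are not independent of each other. The members' median deviation from their group mean was -0.13 log2 on CA array 1, and without that array 24 of 29 lay below Control with a median of -0.062. With the block and without Control replicate 1 the median was -0.069, over 23 of 29 below Control.

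The 3 probe sets with an unadjusted p under 0.05 were SSR3 217790_s_at at -0.37 ± 0.15 log2 (SE, n = 3 arrays per group, limma adjusted p 0.986), SSR3 222412_s_at at -0.25 ± 0.10 and SEC62 1552790_a_at at -0.28 ± 0.12, with the same adjusted p. With the block their adjusted p was 0.343, 0.479 and 0.476 (limma, n = 3). In 2 of the 29, SSR3 222412_s_at and SEC62 1552790_a_at, the 3 CA arrays lay below all 3 Control arrays, which was so in 4.06% of all probe sets. In 0 members did they lie above, where 3.79% of all did. The 95% interval of the difference for 217790_s_at ran from -0.71 to -0.04 log2, before any correction for the number of probe sets. For this probe set the differences of CA from Control and of ICC from CA add up to the value it was chosen for. Its interval and its place among the 3 are therefore not independent of the choice.

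Instant coffee against caffeic acid tests the difference between the treatments, at doses that differ, and shares the ICC arrays with the contrast that chose the members. For SSR3 217790_s_at this difference is part of the value it was chosen for, so its test and interval are not independent of the choice. The largest member difference was again SSR3 217790_s_at, at -0.35 ± 0.15 log2 (SE, n = 3 arrays per group, limma adjusted p 1.00, with the block 0.882), with a 95% interval from -0.68 to -0.02. The other SSR3 probe sets differed by -0.08 (222412_s_at), +0.03 (222411_s_at) and +0.005 (237817_at), with intervals from -0.30 to 0.15, -0.16 to 0.22 and -0.19 to 0.20. Over all members 14 of 29 were below 0 with a median of +0.0049 log2, against 42.3% and +0.018 over all probe sets. The count was 9 without ICC replicate 1 (7 with the block), 21 without CA replicate 1 and 2 of 9 with 1 probe set a gene, and the median took either sign, between -0.066 and 0.065, with single arrays left out. By limma 0 of 29 passed after adjustment, where 0% of all probe sets did. An unadjusted p under 0.05 was found for 1 member lower and 0 higher, where 0.87% and 1.78% of all were, and with the block for 1 lower and 0 higher, where 2.06% and 3.45% of all were. In no member did the 3 ICC arrays lie wholly on one side of the 3 CA arrays, which 2.11% of all probe sets did below and 3.78% above. In the fit without the block, the intervals of single probe sets reached as far as -0.74 (SEC63 235395_at) and 0.51 log2 (SSR1 225435_at). That fit leaves room for differences of that size in single probe sets. With the block the SE fell from 0.222 to 0.172 for SEC63 235395_at and from 0.205 to 0.097 for SSR1 225435_at.

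**Figure D2:**
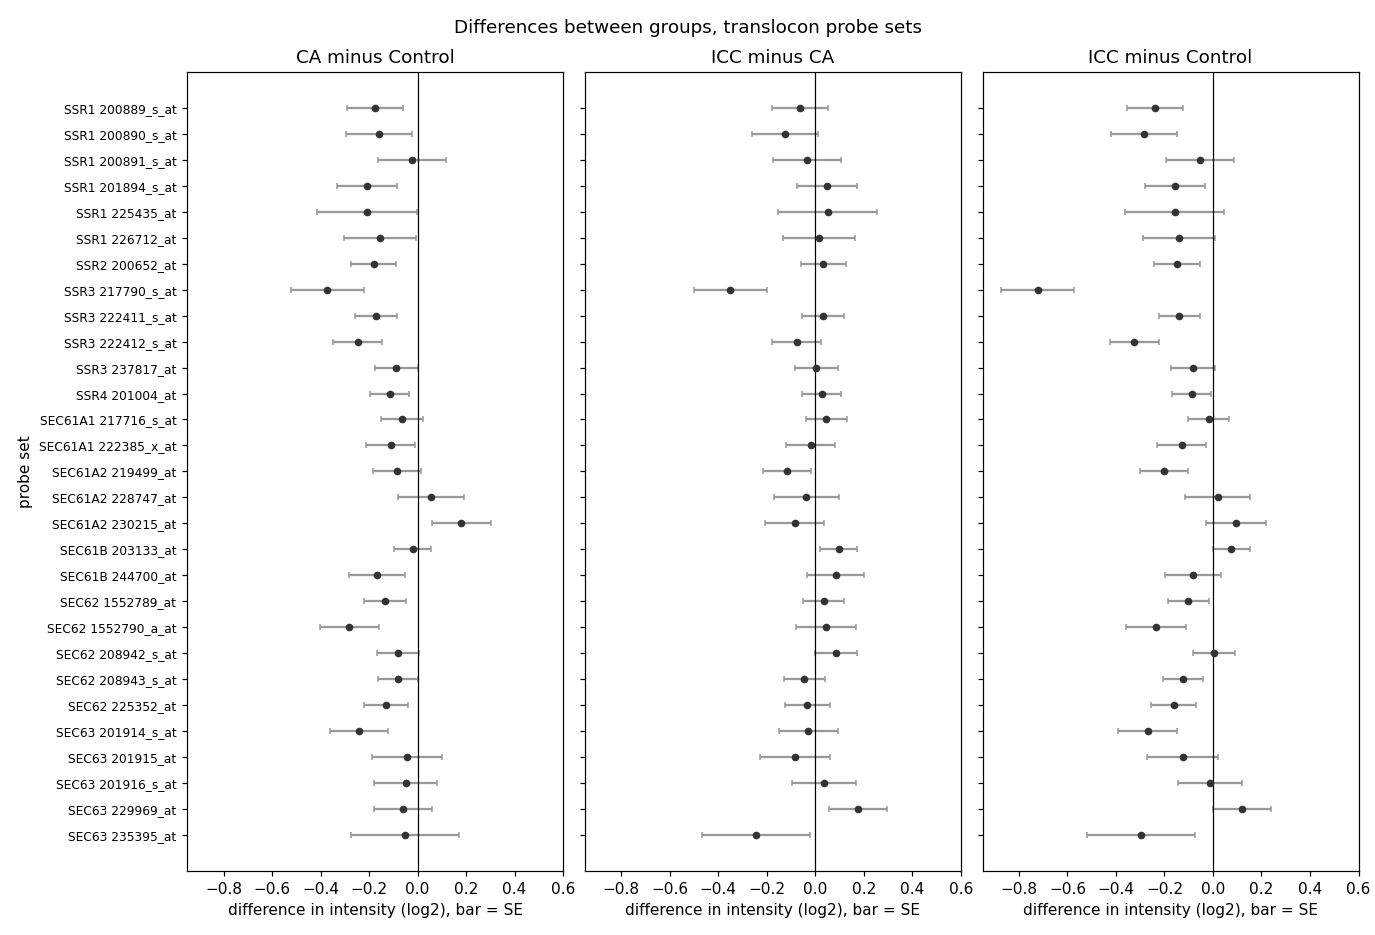
Difference in log2 intensity between groups (horizontal axis) for each of the 29 probe sets (vertical axis), in 3 panels, with bars of 1 SE from the linear model over 9 arrays. Most points lie left of 0 in the CA minus Control panel (27 of 29) and are split around 0 in the ICC minus CA panel (14 of 29 below), where SSR3 217790_s_at lies lowest at -0.35.

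In the contrast that chose the set, ICC against Control, 24 of 29 member probe sets lay below 0, where 45.1% of all did, and in 9 the ICC arrays lay wholly below the Control arrays, where 4.75% of all did (0 wholly above, against 7.08% of all). With the replicate block 2 of 54613 probe sets, or 0.00366%, passed the adjusted threshold over all probe sets, and 0 without it. Nothing is read from these counts, since the contrast is the one used for the choice. The 9 were 2 probe sets of SSR3, 3 of SEC62, 2 of SEC63 and 1 each of SSR1 and SSR2.

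SSR1, the alpha subunit of TRAP and a calcium-binding membrane protein, was read by 6 probe sets, in all of which the array numbered 3 was the highest of its group. Probe set 225435_at read 8.23, 8.34 and 8.63 log2 in Control, 7.97, 8.20 and 8.41 in CA and 7.84, 8.15 and 8.73 in ICC. In every group the array numbered 1 was lowest and the one numbered 2 between the others. Averaged over the groups, number 3 lay above number 1 by 0.58 log2, and the difference among numbers passed limma's F-test over all probe sets (adjusted p 0.0199). The same order held in 226712_at, from 6.92, 7.01 and 7.22 in Control to 6.70, 6.85 and 7.13 in CA and 6.65, 6.87 and 7.20 in ICC (adjusted p 0.0215, limma).

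Probe set 200891_s_at of SSR1 also differed by number (limma adjusted p 0.0345), with number 3 above number 1 by 0.39 log2. Its group means were nearly alike, at 11.86 ± 0.17 (SD, n = 3) in Control, 11.84 ± 0.20 in CA and 11.81 ± 0.24 in ICC. In 200889_s_at, 200890_s_at and 201894_s_at number 3 lay above number 1 by 0.22, 0.36 and 0.30 log2, with adjusted p of 0.101, 0.0645 and 0.0681 (limma, n = 3 per number). Probe set 200890_s_at read 9.53, 9.54 and 9.68 in Control, 9.16, 9.44 and 9.68 in CA and 9.11, 9.28 and 9.52 in ICC. Against Control the 6 SSR1 probe sets differed by -0.21 to -0.02 log2 in CA, and between ICC and CA by -0.13 to 0.05. The 95% intervals of the second lay within -0.43 and 0.51 in the fit without the block.

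The annotation of 201894_s_at is in doubt, since it carries the symbol SSR1 beside an accession that RefSeq gives to DCN, the matrix proteoglycan decorin. Of 9 members with a RefSeq accession, the other 8 matched their symbol. The 7 probe sets annotated to DCN had means between 3.30 and 5.50 log2, while 201894_s_at read between 9.57 and 10.13. Leaving it out made 26 of 28 member probe sets below Control in CA and left 5 called by replicate number.

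**Figure D3:**
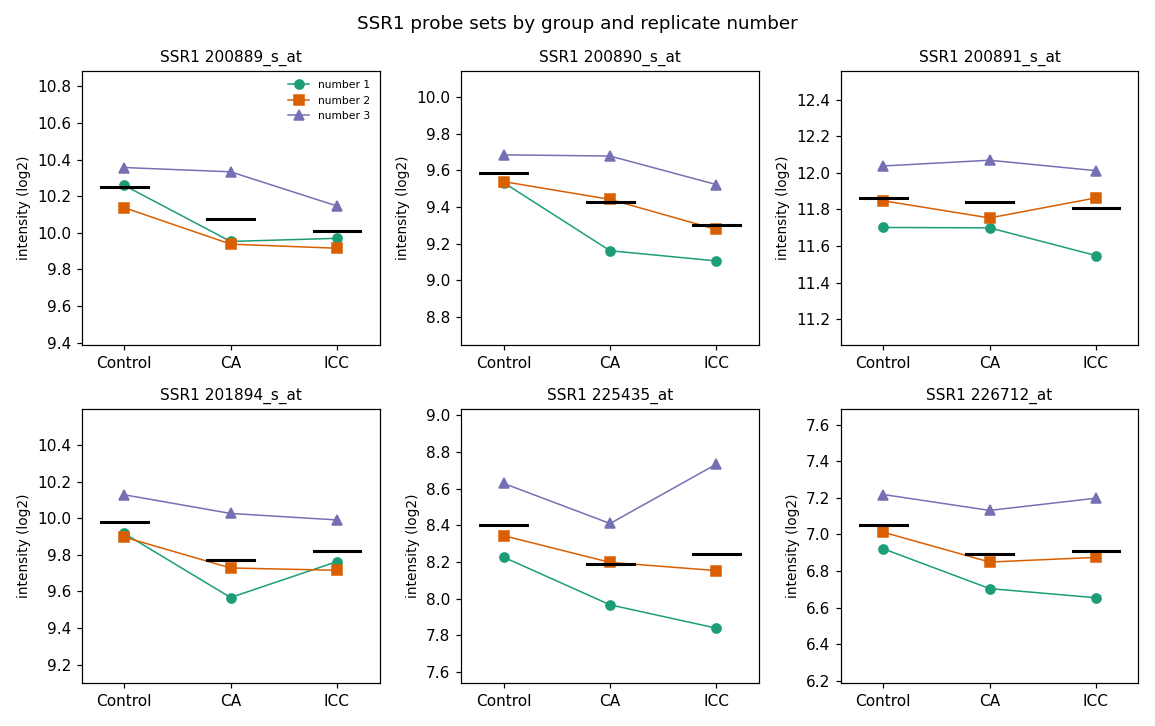
Log2 intensity of the 6 SSR1 probe sets (vertical axis, every panel spanning the same height) by group, with lines joining arrays of the same replicate number and black bars at group means of 3 arrays. The array numbered 3 is the highest of its group in all 6 probe sets, and in 225435_at it lies 0.58 log2 above number 1 on average.

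Across all members 5 of 29 probe sets differed among replicate numbers after adjustment, where 4.72% of all probe sets were called and 8.35% of those brighter than the arrays' median. An unadjusted p under 0.05 was found for 12 of 29 members, where 19.7% of all were. The 5 called were 3 of SSR1, SSR3 217790_s_at (adjusted p 0.0244, limma) and SEC63 201916_s_at (0.0309). In all 5 the mean of number 3 lay above that of number 1, as it did in 42.3% of the called probe sets of the whole array. For SSR3 217790_s_at this is not independent of the choice, since it was picked in a fit with the number as a block. Without the group term 4 of 29 were called, and SSR3 217790_s_at was not among them (adjusted p 0.552, limma). In 18 of 29 probe sets the array numbered 3 lay above that numbered 1 in each of the 3 groups, against 15.2% of all probe sets, dim ones included. With single arrays left out the count of called members lay between 0 and 4: it was 0 without Control replicate 3 or CA replicate 1, 1 without CA replicate 3, ICC replicate 1 or ICC replicate 3, 2 without Control replicate 2, 3 without Control replicate 1 and 4 without CA replicate 2 or ICC replicate 2. Over all probe sets the count fell from 2578 to between 828 and 1792 in the same fits. What the number stands for is not in the labels, and its part in the treatment differences was not tested beyond the block.

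SSR2, the beta subunit of TRAP, had 1 probe set, which read 11.55, 11.47 and 11.58 log2 in Control, 11.30, 11.22 and 11.54 in CA and 11.27, 11.44 and 11.45 in ICC. CA and Control overlapped in 1 array, numbered 3. The difference was -0.18 ± 0.09 log2 in CA (SE, n = 3, limma adjusted p 0.986, with the block 0.607). SSR4, the delta subunit, read between 12.38 and 12.65 on all arrays and differed by -0.11 ± 0.08 in CA and +0.03 ± 0.08 between ICC and CA (SE).

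Of the channel itself, SEC61A1, the main pore subunit, read 11.22, 11.01 and 11.14 log2 in Control, 11.05, 10.95 and 11.18 in CA and 11.09, 11.05 and 11.18 in ICC in probe set 217716_s_at. The groups overlapped throughout, with differences of -0.06 ± 0.09 for CA against Control and +0.05 ± 0.09 for ICC against CA (SE, n = 3). Its second probe set, 222385_x_at, had its highest value, 11.09, in Control replicate 1 and between 10.66 and 10.81 on all others. SEC61B, the small beta subunit, read 11.62, 11.70 and 11.68 in Control, 11.73, 11.57 and 11.64 in CA and 11.85, 11.70 and 11.68 in ICC. In this probe set, 203133_at, the mean was 11.67 ± 0.04 in Control, 11.65 ± 0.08 in CA and 11.74 ± 0.09 in ICC (SD, n = 3).

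SEC61A2, the second alpha subunit gene, was read by 3 probe sets that did not share a direction. Probe set 219499_at read 7.07, 6.94 and 7.00 log2 in Control, 7.11, 6.82 and 6.81 in CA and 6.70, 6.77 and 6.94 in ICC, where 2 ICC arrays lay below all others. Against Control, CA differed by -0.09 ± 0.10 log2 in 219499_at, +0.06 ± 0.13 in 228747_at and +0.18 ± 0.12 in 230215_at (SE, n = 3). The last of these lay below the median of the arrays (5.49 log2), as did SEC61B 244700_at and SEC63 235395_at, and whether these lie above background was not tested. The other 26 of 29 member probe sets lay above that median. No member of the SEC61 channel passed the test in any contrast tested or among replicate numbers.

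SEC62, a membrane protein that assists late or post-translational entry and also serves as a receptor for turnover of the endoplasmic reticulum, had 5 probe sets, all lower in CA than in Control on average, by -0.28 to -0.08 log2. Probe set 1552790_a_at read 8.74, 8.82 and 8.93 in Control, 8.35, 8.58 and 8.72 in CA and 8.35, 8.75 and 8.68 in ICC. Its CA arrays lay wholly below Control, and its ICC arrays overlapped with it. The remaining SEC62 probe sets differed by -0.14 to -0.08 log2 in CA, each with overlapping arrays and an adjusted p of 0.986 to 0.992 (limma, n = 3).

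SEC63, which carries the J domain that recruits BiP, had 5 probe sets that differed in which array stood apart. Probe set 201914_s_at read 9.49, 9.26 and 9.17 log2 in Control, 8.90, 9.29 and 9.01 in CA and 8.87, 9.12 and 9.11 in ICC. Between arrays numbered 1 the CA value lay below Control by -0.59, while between those numbered 2 it lay above by 0.03. Probe set 201915_at read 6.92 on all 3 Control arrays but 6.67, 7.13 and 6.83 in CA and 6.47, 6.92 and 6.99 in ICC, so the treated arrays spread to both sides of Control. In 201916_s_at the arrays numbered 1 were lowest in every group, at 9.95 in Control, 9.86 in CA and 9.91 in ICC, against 10.11 to 10.29 for the others. In 235395_at, which is dim, CA read 3.74, 4.82 and 4.19, a spread wider than any difference between groups.

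**Figure D4:**
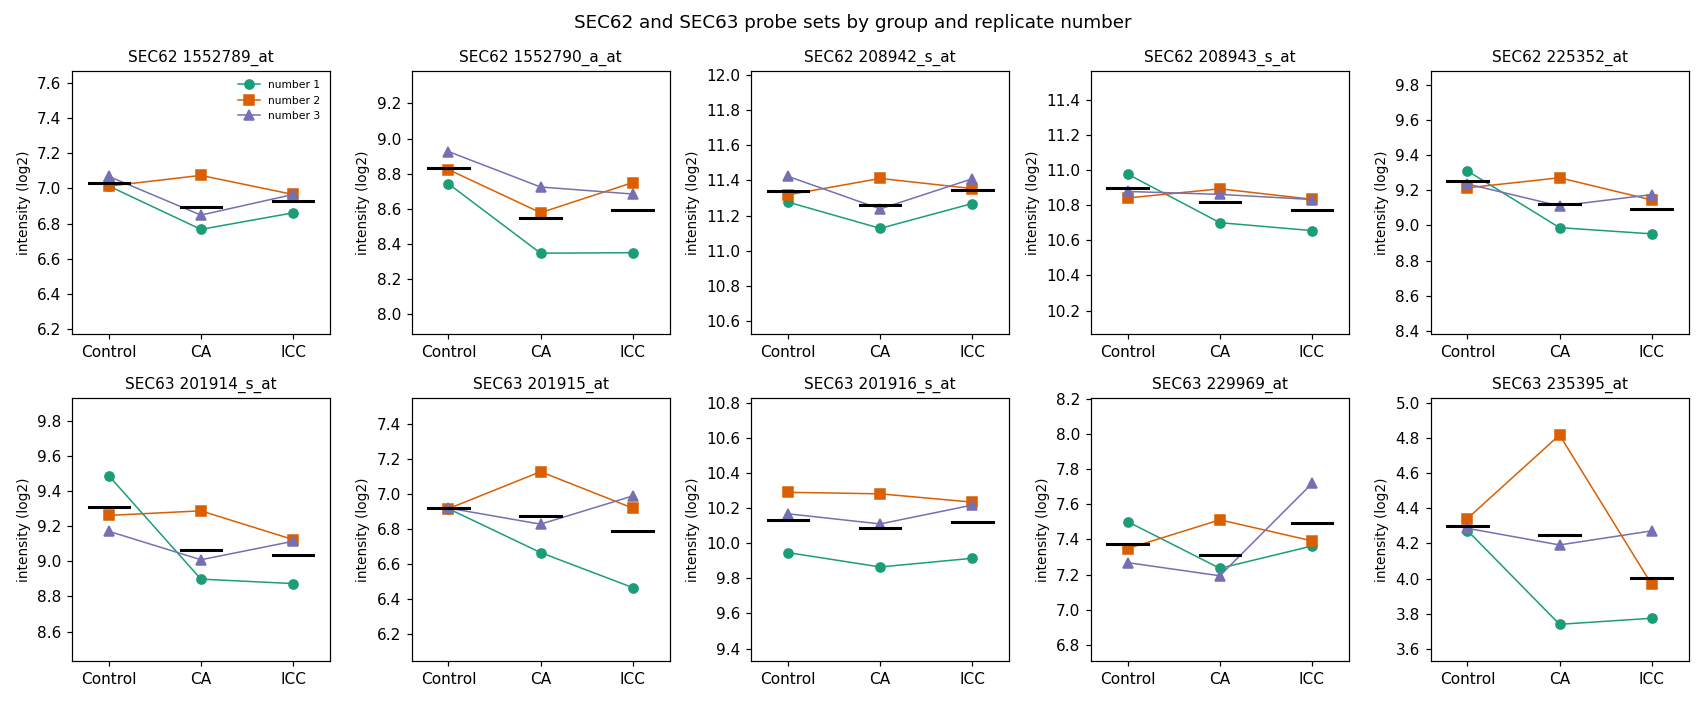
Log2 intensity of the 5 SEC62 (top) and 5 SEC63 (bottom) probe sets (vertical axis, every panel spanning the same height) by group, with lines joining arrays of the same replicate number and black bars at group means of 3 arrays. The array numbered 1 is lowest in every group for SEC63 201916_s_at, and SEC63 235395_at spreads from 3.74 to 4.82 within CA.

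The wider route to the translocon was described with 9 lists of 56 genes, of which 54 had probe sets, 107 in all. Limma called 0 of the 107 in CA against Control and 0 in ICC against CA, with or without the block, as it called 0% of all probe sets. At an unadjusted p under 0.05 there were 7 lower and 0 higher in CA against Control, where 2.49% and 2.18% of all probe sets were, and with the block 13 and 0, where 4.91% and 3.31% were. In ICC against CA there were 1 lower and 0 higher, where 0.87% and 1.78% of all were, and with the block 1 and 1, where 2.06% and 3.45% were. In CA 73 of the 107 lay below Control, with a median of -0.06 log2, where 52% of all probe sets did, with a median of -0.0047. Of the 107, 90 lay above the arrays' median, while the 52% covers dim probe sets too. The counts by list follow, with no test of a difference between lists and with several probe sets reading 1 gene. All 11 signal peptidase probe sets, of the enzyme that removes signal sequences, and all 5 of the SRP receptor lay below Control, at medians of -0.15 and -0.20, and of the SRP subunits 1 of 11 did, at a median of +0.05. Of the oligosaccharyltransferase, which adds sugar chains beside the channel, 16 of 22 lay below Control (median -0.06), and of the ER membrane protein complex, an insertase, 17 of 21 (median -0.06).

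Below Control in CA were also 9 of 11 probe sets of the multipass translocon factors (median -0.11), 4 of 7 of the translocating chain factors TRAM1, TRAM2 and TRAM1L1 (-0.09), 6 of 8 of the lumenal partners of SEC61 (-0.02) and 4 of 11 for tail-anchor insertion (+0.03). Probe set 222532_at of SRPRB, the membrane anchor of the SRP receptor, read 8.89, 8.66 and 8.75 log2 in Control, 8.30, 8.38 and 8.55 in CA and 8.26, 8.27 and 8.52 in ICC. In this probe set both treated groups lay wholly below Control, with -0.36 ± 0.10 in CA (SE, n = 3, limma adjusted p 0.986, with the block 0.448). It was the only 1 of the 5 SRP receptor probe sets in which either treated group did so. RPN1, an oligosaccharyltransferase subunit, differed by -0.19 ± 0.11 and DNAJB11, a BiP cofactor, by -0.19 ± 0.12 in CA (SE). Both had a limma adjusted p of 0.986 (with the block 0.555 and 0.598) and CA arrays that overlapped with Control. Of the other genes picked by smallest p in their lists, SRP72 (+0.12), GET3 (+0.07), MAGT1 (+0.06) and SRP54 (+0.04) were higher in CA than in Control. The rest were lower.

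Among replicate numbers 2 of the 107 were called, where 4.72% of all probe sets were and 8.35% of those brighter than the arrays' median. In probe set 200917_s_at of SRPRA, the SRP-binding part of the receptor, number 3 lay below number 1 (-0.38 log2, limma adjusted p 0.0292). This was the opposite direction to SSR1, but number 3 lay above number 1 in 4 of the 5 SRP receptor probe sets (median +0.03). In probe set 211098_x_at of TMCO1, a factor of the multipass translocon, number 3 lay above number 1 by 0.36 log2 (limma adjusted p 0.0443). Both calls were lost whichever single array was left out (adjusted p 0.0502 to 0.117 for SRPRA and 0.0581 to 0.184 for TMCO1, limma).

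The probe sets whose values most resembled SSR3 217790_s_at over the 9 arrays, among 22740 other single-gene probe sets brighter than the median, were 2 of the mRNA export factor ALYREF (Pearson r 0.967 and 0.951), and 1 each of the zinc finger gene ZNF493 (0.962), the nuclear lamina protein TMPO (0.962) and WDR76 (0.953). Spearman's rho lay between 0.90 and 0.98. After Control replicate 3 and ICC replicate 2, the arrays farthest from the median, were left out, r lay between 0.89 and 0.98. These arrays share groups and replicate numbers, and 60 candidates had an r over 0.9, so the values describe likeness only. ICC differed from Control by -0.47 to -0.26 log2 in these 5, with the CA mean between, an order that follows from choosing them for likeness to 217790_s_at.

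As a check of the label, 9 of 10 markers of colon epithelium, among them EPCAM, KRT18 and KRT20, had a probe set above the median of the arrays, and CDH17 did not, at 4.14 log2. Of 11 measured markers of fibroblasts, leukocytes and endothelium, 4 (COL1A1, DCN, CD14 and PECAM1) lay above the median and 0 above the upper quartile of 7.61 log2. The summed intensity of the 5 fibroblast markers was 228 to 245 in Control, 237 to 270 in CA and 257 to 290 in ICC, that of the leukocyte markers 185 to 270, 147 to 194 and 177 to 227, and that of the endothelial markers 102 to 112, 104 to 112 and 111 to 128. Their part in the values of the translocon genes was not tested. Median intensities per array ranged from 43.8 to 46.6, and any pair of arrays correlated at 0.993 to 0.998 across probe sets.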

How the data were processed

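The authors deposited 1 table of intensity values for 54675 probe sets on 9 arrays, which the submitters' processing notes credit to RMA (version not given in the sources used here). Deposited intensity was linear, so log2 was taken. Of 54613 probe sets left without 62 controls, 41091 had 1 symbol in the platform annotation, 1801 several and 11721 none, and 0 symbols changed through RefSeq.

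All 54613 were fitted with limma 3.58.1 in R 4.3.3, a linear model of the 3 groups over 9 arrays with moderated tests, and p-values adjusted by Benjamini and Hochberg over all of them at 0.05. SE is that of the moderated fit. Replicate numbers were compared with a moderated F-test in a model of group and number. Deviations from group means correlated at 0.271 to 0.478 in all 9 same-numbered pairs of arrays from different groups. In the 18 pairs with different numbers and groups they correlated at -0.407 to 0.0770. Deviations sum to 0 within a group, so the second range is not independent of the first. From the first range, the number was taken to pair arrays. The fit with it as a block is given beside the counts of probe sets passing and beside some single probe sets. All other SEs and intervals are those of the fit without it, also where the block made the SE smaller. An exact permutation test of 3 arrays against 3 reaches at best a p of 0.1.

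The members, lists and tests were chosen with earlier results of these data known. The text names all members, at most 2 genes a list by smallest p outside ICC minus Control and the 5 most alike probe sets. The fits were run on simulated independent values with planted changes larger than the member differences described here and no replicate-number effect shared by all probe sets. That run does not show what the fits detect in these data. Alternatives in scaling, filters, prior, block and arrays left out were run. Promoters came from RefSeq, build GRCh38.p14. Figures used matplotlib 3.10.9 in Python 3.11.15.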

Additional observations from a re-analysis of the deposited data

How the results depend on the processing

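The 3 arrays per group limit every value here. In CA against Control and in ICC against CA, 0 member probe sets and 0 pathway probe sets were called under every alternative run: with the replicate block, quantile normalization again, arrays centred on their medians, without dim probe sets, log2(intensity + 16), array weights, a trended and robust prior, only the 2 groups compared, 1 probe set a gene, without the _x_at and _s_at probe sets, and with each array left out, with or without the block. The number below Control in CA was 23 to 27 with single arrays left out. It was 9 of 9 with 1 probe set a gene and 14 of 16 without _x_at and _s_at probe sets, where fewer are tested. With the block it was 27, but over all 9 arrays the block cannot change a difference between groups. The ICC minus Control difference of SSR3 217790_s_at lay between -0.85 and -0.60 log2 wherever that probe set was kept. This is the value the members were chosen for. With all 9 arrays, the block, the prior and the filters cannot change it, so nothing is read from its range. Members called by replicate number were 9 with the trended and robust prior. That fit called 3805 probe sets over the whole array, against 2578 in the main fit. Without dim probe sets 7 members were called (3425 of all probe sets kept). The count was 6 after quantile normalization again (2782 of all), with log2(intensity + 16) (2713) and with array weights (2859). It was 2 with 1 probe set a gene (1217), 2 without _x_at and _s_at probe sets (1768), and 0 to 4 with single arrays left out. Pathway probe sets called by number were 4 after quantile normalization again, 10 without dim probe sets, 6 with log2(intensity + 16) and 11 with the trended and robust prior. They were 1 with 1 probe set a gene, 0 without _x_at and _s_at probe sets, 1 without the group term, and 0 to 1 with single arrays left out. These come from the same fits as the member counts, with the same totals over all probe sets (1711 without the group term). Leaving 201894_s_at out and applying the alternatives to the pathway lists were chosen after seeing the data. Where a count moved and the number of probe sets did not, the cause was not tested.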
